A study of Mus musculus with 4 samples.

Results

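The genes of sterol and fatty acid synthesis were examined as 1 set of 31 genes, chosen by name as targets or regulators of the SREBP transcription factors. They were taken from the array by the symbol in the platform annotation, with the probe set of highest mean signal standing for a gene. The choice was made with earlier results of these data known, so counts set beside a background describe the genes and do not test them. The array measured 27 of the 31, namely 16 of 18 in the sterol arm, 7 of 8 in the fatty acid arm and 4 of 5 genes that control the pathway or move sterol. Acat2, Tm7sf2, Srebf1 and Scd2 were not analysed here. Each of the 27 was read by 1 probe set, among 22206 probe sets for 19505 named genes.

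The cells were MC38, an established mouse colon adenocarcinoma line, and the study asked how loss of Mgat5 changes their expression profile. Mgat5 encodes N-acetylglucosaminyltransferase V, which starts one of the branches of N-glycan chains in the Golgi. The control group held MC38 WT, which are the unmodified cells, and MC38 MOCK, which carry an empty vector. The knockout group held MC38 KO T5 clone 1 and MC38 KO T5 clone 2. Each was read on 1 Clariom S mouse array, so n = 2 per group, and nothing in the labels ties the arrays to separate cultures, so p-values measure only the spread between these 4 arrays. Each knockout sample is titled as 1 clone and neither control is, so effects of cloning and of Mgat5 loss cannot be told apart. All 4 samples carry the cell label of the knockout, the controls included, and the titles were followed.

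Mammalian cells build cholesterol from acetyl-CoA through mevalonate, isoprenyl units, squalene and lanosterol, and build fatty acids from malonyl-CoA. SREBP2, the product of Srebf2, drives the sterol genes and SREBP1 the fatty acid genes. Scap carries SREBP from the endoplasmic reticulum to the Golgi, where it is cut and released to the nucleus, and Insig1 holds Scap back when sterol is plentiful. Insig1 is itself an SREBP target, so its level is part of a feedback loop.

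The signals are log2 values, and a difference of 1 log2 unit is a 2-fold change. Signal distributions differed between the arrays. Their 75th percentile over all probe sets ran from 8.87 in WT to 9.60 in clone 2, and the 99th was 14.7 in WT against 15.8 to 15.9 on the other arrays. WT was the lowest of the 4 arrays for 76.2% of the 6443 probe sets whose mean signal was at least that of the dimmest of the 27 genes, called probe sets as bright from here on. The counts and medians are therefore given as deposited and after quantile normalization, which makes the 4 distributions equal, and clone 2 is also set against MOCK alone. All 27 genes lay above the 75th percentile of the negative-control features on every array. Mgat5 read 8.27 in WT, 8.19 in MOCK, 7.46 in clone 1 and 7.57 in clone 2, lower in both clones, 1.64-fold as deposited, which limma did not call (adjusted p = 0.631), and 2.15-fold after quantile normalization. The 9 epithelial markers examined, among them Epcam, Cdh1 and Krt8, were below the 75th percentile of the negative controls on every array, whereas Vim read 16.53 and 17.43 in WT and MOCK, 17.28 in clone 1 and 17.07 in clone 2. All 4 measured leukocyte, all 3 endothelial and all 4 hepatocyte markers were below that percentile on every array. Of 4 fibroblast markers 1 was, Col1a1, and another was above that percentile in clone 1 alone. Pdgfrb read 11.42 in WT, 11.47 in MOCK, 11.70 in clone 1 and 12.02 in clone 2, and Col3a1 11.79, 11.80, 11.19 and 10.75 in that order. The median over the 4 fibroblast markers was 8.355 in WT, 8.275 in MOCK, 9.09 in clone 1 and 8.37 in clone 2.

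Promoters are shown for 5 genes. They are Hmgcs1 at the head of the pathway, and Nsdhl and Insig1 with large differences in clone 2. The others are Ebp, the sterol gene that was higher in clone 2, and Acss2, which was low in both clones. Each is the 250 bases before the annotated start, 5′ to 3′ on the gene's own strand, from RefSeq on GRCm38.p6. Capitals mark the CCAAT box, the NF-Y motif, on either strand (ATTGG on the other strand), and in Hmgcs1 also the sterol regulatory element TCACNCCAC. The windows are chr13:119690101-119690350 (plus strand) for Hmgcs1, chrX:72918271-72918520 (plus) for Nsdhl, chr5:28071162-28071411 (plus) for Insig1, chrX:8193513-8193762 (minus) for Ebp and chr2:155517793-155518042 (plus) for Acss2.
Hmgcs1: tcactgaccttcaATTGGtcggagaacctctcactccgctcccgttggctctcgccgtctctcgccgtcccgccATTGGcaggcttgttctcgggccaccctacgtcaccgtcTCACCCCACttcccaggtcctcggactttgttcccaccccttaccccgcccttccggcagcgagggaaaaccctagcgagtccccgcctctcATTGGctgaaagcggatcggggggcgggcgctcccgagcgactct
Nsdhl: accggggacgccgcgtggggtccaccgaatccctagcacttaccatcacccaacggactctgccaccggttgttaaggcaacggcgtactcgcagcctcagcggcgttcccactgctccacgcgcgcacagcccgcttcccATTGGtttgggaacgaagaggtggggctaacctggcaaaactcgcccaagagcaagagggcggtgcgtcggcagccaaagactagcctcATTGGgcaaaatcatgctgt
Insig1: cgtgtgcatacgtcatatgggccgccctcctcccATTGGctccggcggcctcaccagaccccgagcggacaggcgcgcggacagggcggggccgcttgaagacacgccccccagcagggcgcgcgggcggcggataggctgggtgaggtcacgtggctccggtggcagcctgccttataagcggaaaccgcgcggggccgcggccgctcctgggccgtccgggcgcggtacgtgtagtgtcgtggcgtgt
Ebp: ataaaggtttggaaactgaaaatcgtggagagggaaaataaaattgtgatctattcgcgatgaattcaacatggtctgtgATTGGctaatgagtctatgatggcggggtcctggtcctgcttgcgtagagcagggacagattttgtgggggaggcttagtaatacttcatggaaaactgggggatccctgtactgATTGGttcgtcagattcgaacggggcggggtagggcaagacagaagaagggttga
Acss2: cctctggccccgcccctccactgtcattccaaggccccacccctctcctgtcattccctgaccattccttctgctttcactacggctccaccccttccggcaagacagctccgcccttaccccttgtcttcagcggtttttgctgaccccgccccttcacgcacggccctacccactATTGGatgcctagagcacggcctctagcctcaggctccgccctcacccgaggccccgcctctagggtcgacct

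Windows were found for 22 of the 27 measured genes. A CCAAT box stood in at least 1 window of 13 of the 13 sterol-arm genes with one, 3 of 6 fatty acid genes and 2 of 3 control genes, against 39.2% of the 15691 genes on the array that have a window. Hmgcs1 holds 3, whose first bases lie 237, 176 and 45 bases before the start, and Nsdhl holds 2, at 109 and 20 bases. Insig1 and Acss2 hold 1 each, at 216 and 73 bases. Ebp, the 1 sterol-arm gene that was higher in clone 2, also holds 2, at 170 and 55 bases. Whether any of these motifs bears on the signals was not tested. The GC box GGGCGG, searched on both strands, stood in 12 of 13 sterol-arm genes against 47.7% of genes on the array, and the windows of the sterol arm had a median GC content of 62.6% against 56.0% for those of all genes on the array. The E-box CACGTG, which reads the same on both strands, was found in 3 of 13 sterol-arm genes against 7.92%. The sterol regulatory element, with any base at N, was found on either strand in 1 of the 22 genes, Hmgcs1, 137 bases before the start, against 1.22% of genes on the array. Looser variants of these motifs were not searched, and where none was found, only these letters are missing from the 250 bases.

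Most of the sterol pathway had its lowest signal in clone 2, which was the lowest array for 13 of 16 sterol genes as deposited and 15 of 16 after quantile normalization, whereas clone 1 was the lowest for 0. Relative to the control mean, 15 of 16 sterol genes and all 7 fatty acid genes were lower in clone 2, where 33.9% of all probe sets were. As deposited, the medians in clone 2 were -0.70 and -0.35 log2 units, against 0.24 over all probe sets and 0.46 over those as bright. Clone 1 had medians of 0.31 and 0.02 against 0.12 and 0.35, so neither arm was raised in clone 1 relative to the probe sets as bright. In such bulk RNA, fewer cells of a kind and less RNA per cell cannot be told apart. None of the 27 genes was called for knockout against control, where called means a limma adjusted p under 0.05 over all probe sets and the background is 0.0405%. Adjusted p over the 27 ran from 0.545 to 0.993 (limma), and 2 genes, Nsdhl and Lss, had an unadjusted p under 0.05 where 8.75% of all probe sets did. After quantile normalization 0 of the 27 were called (background 0.0045%) and 8 had an unadjusted p under 0.05 (background 8.92%). The SE of a difference ran from 0.37 to 0.58 log2 units. Values for a single clone rest on 1 array and have no replicate check, and the differences of both clones share the same control arrays.

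**Figure D1:**
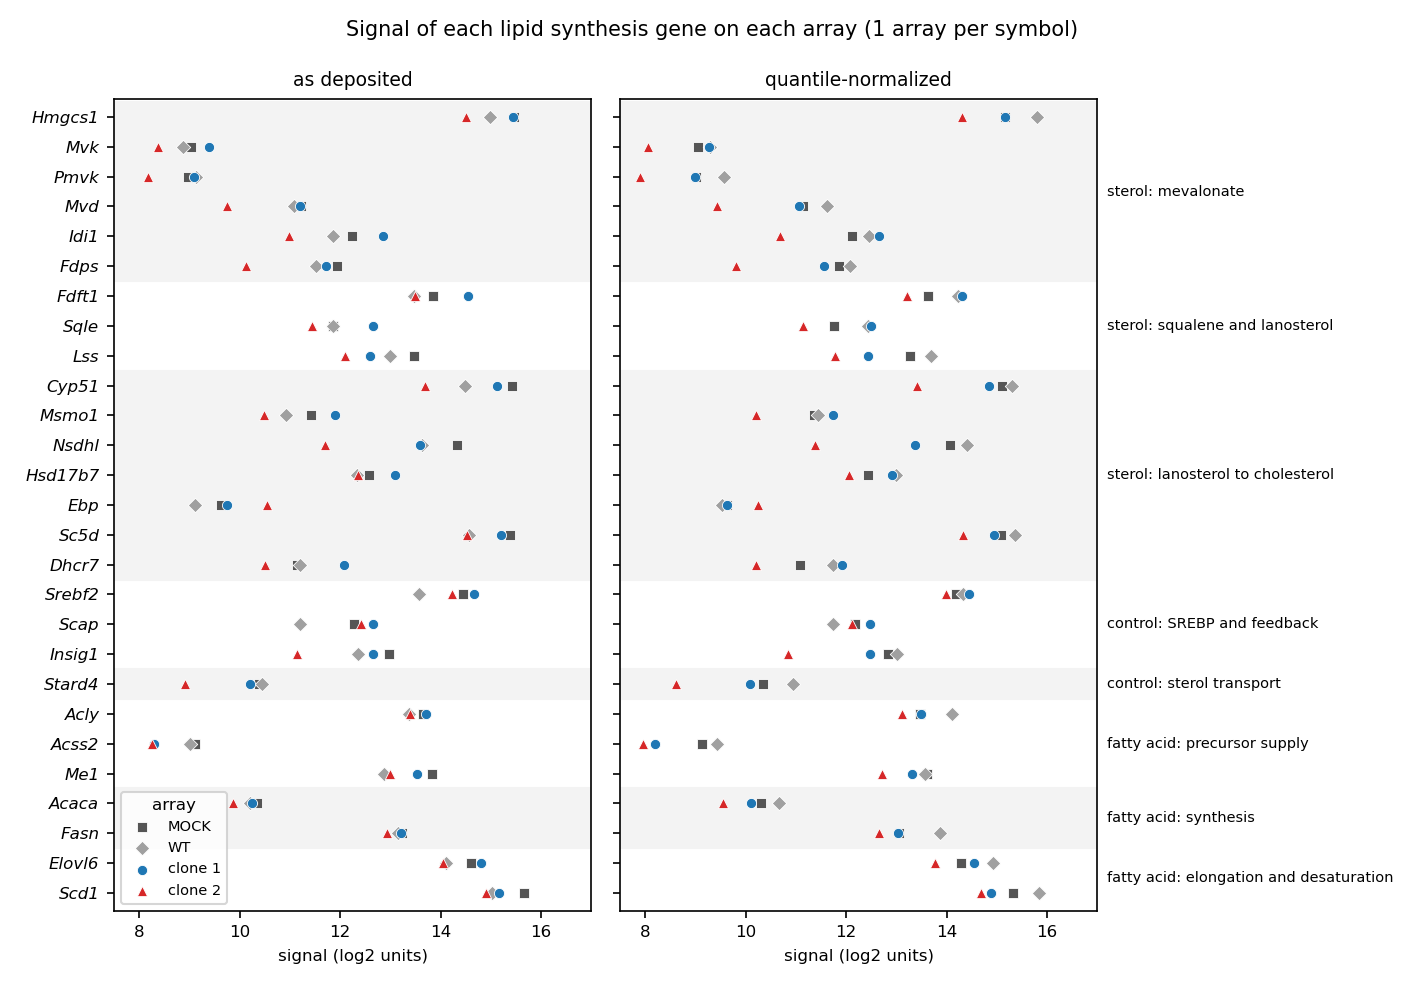
Signal in log2 units of each of the 27 genes on each of the 4 arrays, as deposited (left) and quantile-normalized (right), ordered by step of the pathway. Clone 2 (triangles) is the lowest array for 20 of 27 genes as deposited and for 25 of 27 after quantile normalization.

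The first steps, from acetoacetyl-CoA to farnesyl diphosphate, were lower in clone 2 for all 6 genes measured. Hmgcs1, which makes HMG-CoA, read 14.99 in WT, 15.47 in MOCK, 15.45 in clone 1 and 14.50 in clone 2. Mvk, the mevalonate kinase, read 8.88 and 9.03 in WT and MOCK, 9.40 in clone 1 and 8.37 in clone 2. Pmvk, the kinase that follows, read 9.14 in WT, 8.98 in MOCK, 9.10 in clone 1 and 8.18 in clone 2. As deposited, clone 1 lay above the control mean for all 3 and clone 2 below both controls, by -0.73, -0.59 and -0.88 log2 units from that mean in the order given.

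The differences were larger at the steps that make and join isoprenyl units. Mvd, the decarboxylase that yields isopentenyl diphosphate, read 11.09 and 11.22 in WT and MOCK, 11.20 in clone 1 and 9.75 in clone 2. MOCK, WT and clone 1 thus stood close together as deposited, and clone 2 was 2.65-fold below the control mean. After quantile normalization WT read 11.62, MOCK 11.15 and clone 1 11.07, and clone 2 was 3.88-fold below the control mean. Fdps, the farnesyl diphosphate synthase, read 11.53 in WT, 11.94 in MOCK, 11.71 in clone 1 and 10.13 in clone 2, which puts clone 2 3.03-fold below the control mean as deposited, and 4.44-fold after quantile normalization, and clone 1 0.03 log2 units below it as deposited. The difference over both clones was -0.81 log2 units (SE 0.51, limma adjusted p = 0.704). Idi1, the isomerase of isopentenyl diphosphate, read 11.85 and 12.23 in WT and MOCK, 12.86 in clone 1 and 10.98 in clone 2. Here, as deposited, the clones lay on opposite sides of both controls, 0.82 log2 units above the mean in clone 1 and 1.05 below it in clone 2. The gap between the clones was 3.66-fold. After quantile normalization clone 1 differed from the mean by 0.38 and clone 2 by -1.60.

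The enzymes from squalene to lanosterol split between the clones. Fdft1, the squalene synthase, read 13.48 in WT, 13.85 in MOCK, 14.55 in clone 1 and 13.50 in clone 2. Sqle, the squalene epoxidase and a rate-controlling step, read 11.85 and 11.86 in WT and MOCK, 12.65 in clone 1 and 11.45 in clone 2. As deposited, clone 1 was the highest array in both genes, 0.89 and 0.80 log2 units above the control mean, while clone 2 lay 0.16 and 0.40 below it. After quantile normalization clone 1 was 0.37 and 0.38 above that mean but only 0.07 and 0.04 above WT. Clone 2 then differed from the mean by -0.71 and -0.97. Lss, the lanosterol synthase, differed from them in being low in both clones, with 13.00 in WT, 13.47 in MOCK, 12.60 in clone 1 and 12.10 in clone 2. Its difference of -0.89 log2 units (SE 0.40, control mean 13.24 ± 0.33 and knockout mean 12.35 ± 0.35, SD, n = 2 each) had an unadjusted p of 0.049 and a limma adjusted p of 0.566.

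Nsdhl, the dehydrogenase that removes methyl groups from lanosterol derivatives by decarboxylation, had the lowest clone 2 value relative to controls of all 27 genes. It read 13.63 and 14.32 in WT and MOCK, 13.59 in clone 1 and 11.69 in clone 2. Clone 1 sat just under WT, and clone 2 lay 4.90-fold below the control mean as deposited and 7.19-fold below it after quantile normalization. Over both clones the difference was -1.34 log2 units (SE 0.58, unadjusted p = 0.041, limma adjusted p = 0.545). With clone 1 left out the limma adjusted p was 0.0126, the 1 call among the 27 genes under any alternative, in a fit where clone 2 is assumed to vary like the controls. The same fit called 529 probe sets in all, against 9 with all arrays.

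Among the partners of Nsdhl in that demethylation, Msmo1, the oxidase, read 10.93 in WT, 11.42 in MOCK, 11.89 in clone 1 and 10.49 in clone 2. Hsd17b7, the reductase, read 12.34 and 12.57 in WT and MOCK, 13.10 in clone 1 and 12.36 in clone 2. As deposited both were highest in clone 1, and Hsd17b7 in clone 2 was level with WT as deposited and below both controls after quantile normalization. Cyp51, which removes the first of these methyl groups, read 14.49 in WT, 15.42 in MOCK, 15.13 in clone 1 and 13.68 in clone 2. MOCK and WT differed by 0.92 log2 units for Cyp51 as deposited, and clone 2 lay below both, 2.42-fold under their mean as deposited and 3.46-fold after quantile normalization.

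The last steps of the pathway held the single exception. Ebp, the sterol isomerase, read 9.11 and 9.63 in WT and MOCK, 9.75 in clone 1 and 10.55 in clone 2. It was the 1 sterol gene higher in clone 2 than in the controls, 2.26-fold above their mean as deposited and 1.59-fold after quantile normalization (knockout minus control 0.78 log2 units, SE 0.42, limma adjusted p = 0.649). Sc5d, the desaturase that follows, read 14.56 in WT, 15.39 in MOCK, 15.21 in clone 1 and 14.52 in clone 2, where WT and clone 2 are alike as deposited. Dhcr7, the reductase that completes cholesterol, read 11.20 and 11.15 in WT and MOCK, 12.08 in clone 1 and 10.50 in clone 2. For Dhcr7 as deposited the controls were nearly equal, clone 1 was 0.90 log2 units above their mean and clone 2 was 0.68 below it. After quantile normalization WT read 11.74 and MOCK 11.09. Clone 1 then lay 0.51 above their mean and 0.18 above WT, and clone 2 differed from the mean by -1.21.

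**Figure D2:**
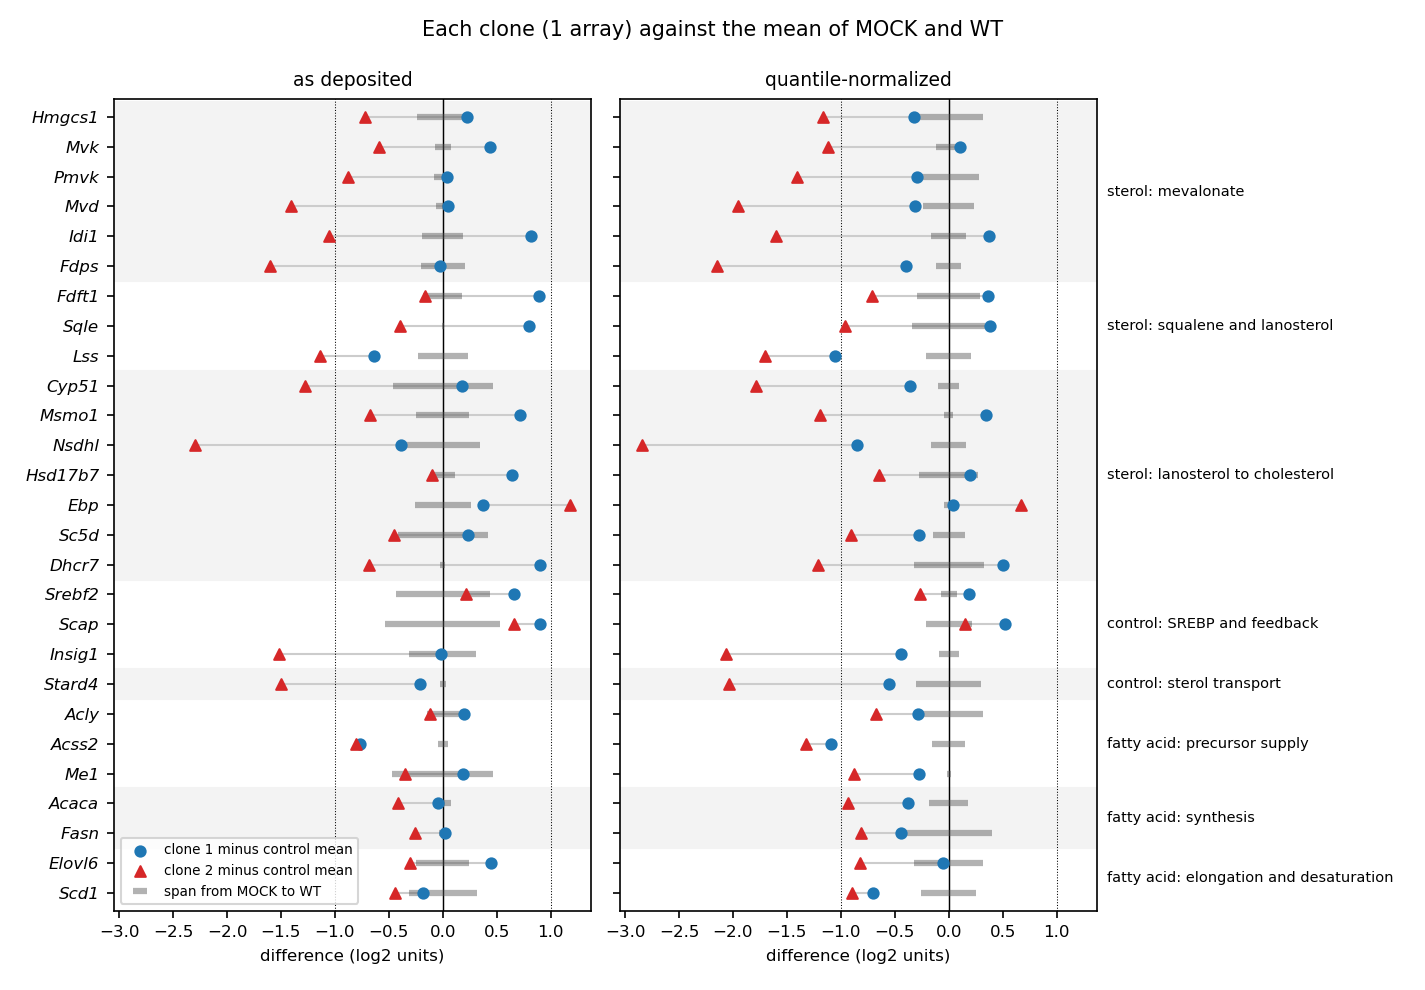
Difference in log2 units of clone 1 (circles) and clone 2 (triangles), 1 array each, from the mean of MOCK and WT for each gene. The grey bar is the span from MOCK to WT, and dotted lines mark 1 log2 unit. Nsdhl in clone 2 lies farthest left, at -2.29 as deposited, and Ebp is the sterol gene whose clone 2 value lies right of 0.

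The regulators did not share 1 direction. Srebf2 read 13.58 in WT, 14.45 in MOCK, 14.67 in clone 1 and 14.23 in clone 2, so clone 2 lay between the controls as deposited and below both after quantile normalization. Scap read 11.21 and 12.28 in WT and MOCK, 12.65 in clone 1 and 12.41 in clone 2, above both controls in both clones as deposited, but in clone 2 between them after quantile normalization. Neither gene was low in clone 2 to the extent of the enzymes, with differences from the control mean of 0.22 and 0.66 log2 units as deposited and -0.27 and 0.15 after quantile normalization. Insig1, the SREBP target that retains Scap, read 12.36 in WT, 12.98 in MOCK, 12.65 in clone 1 and 11.15 in clone 2. Stard4, a cytosolic sterol carrier and SREBP target, read 10.45 and 10.39 in WT and MOCK, 10.21 in clone 1 and 8.92 in clone 2. As deposited, clone 2 was 2.87-fold below the control mean for Insig1 and 2.83-fold below it for Stard4, and 4.19-fold and 4.09-fold after quantile normalization. Clone 1 lay 0.02 and 0.21 log2 units below that mean as deposited (limma adjusted p = 0.718 and 0.648 over both clones).

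In the fatty acid arm the clone 2 differences from the control mean ran from -0.80 to -0.12 log2 units as deposited, against -2.29 to 1.18 in the sterol arm. Acly, which makes cytosolic acetyl-CoA from citrate, read 13.37 in WT, 13.66 in MOCK, 13.71 in clone 1 and 13.39 in clone 2. Acaca, which makes malonyl-CoA, read 10.21 and 10.35 in WT and MOCK, 10.24 in clone 1 and 9.86 in clone 2. Fasn, the fatty acid synthase, read 13.16 in WT, 13.24 in MOCK, 13.22 in clone 1 and 12.94 in clone 2. The 4 arrays spanned less than 1 log2 unit for each of these 3 genes, and none of the 7 was 1 log2 unit or more lower in clone 2 as deposited.

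Me1, the malic enzyme that supplies NADPH, read 12.88 and 13.82 in WT and MOCK, 13.53 in clone 1 and 13.00 in clone 2. Elovl6, an elongase, read 14.11 in WT, 14.60 in MOCK, 14.80 in clone 1 and 14.05 in clone 2. Scd1, the desaturase that makes oleate, read 15.03 and 15.66 in WT and MOCK, 15.16 in clone 1 and 14.90 in clone 2. For Me1 and Scd1 the controls differed by more than the clones did, as deposited. For Elovl6 clone 2 was level with WT as deposited and 1.15 log2 units below it after quantile normalization. Acss2, which makes acetyl-CoA from acetate, was the fatty acid gene whose clones both lay below both controls as deposited, with 9.01 in WT, 9.11 in MOCK, 8.29 in clone 1 and 8.26 in clone 2. The spread inside each group was small, 9.06 ± 0.07 against 8.27 ± 0.03 (SD, n = 2 each), yet the difference of -0.78 log2 units did not pass (SE 0.37, limma adjusted p = 0.586). The moderated SE of limma draws on the spread of all probe sets, not on these 4 values alone.

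Counts over the set put these values beside the array as a whole. At least 1 log2 unit below the control mean in clone 2 were 8 of 27 genes, namely Mvd, Idi1, Fdps, Lss, Cyp51, Nsdhl, Insig1 and Stard4, where 1.91% of all probe sets were that low. Against MOCK alone the same 8 genes passed (background 3.55%), and against WT alone 5 did (background 2.31%). After quantile normalization 14 genes passed, 11 of them in the sterol arm, against 4.54%. In clone 1 the count was 0 (background 2.3%), and 2 after quantile normalization, Lss and Acss2 (background 3.03%). Of the probe sets as bright, 1.6% were that low in clone 2 as deposited and 5.93% after quantile normalization. After quantile normalization, 12 genes passed against MOCK alone (background 5.3%) and 21 against WT alone (background 6.17%), 5 of the 21 in the fatty acid arm.

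As deposited, the contrast between the clones takes no value from the controls. Clone 2 was lower than clone 1 in 26 of 27 genes, Ebp being the exception, where 41.1% of all probe sets were lower. It was at least 1 log2 unit lower in 12, where 4.12% of all probe sets and 4.7% of those as bright were. After quantile normalization 26 genes were lower, against 50.6% of all probe sets. At least 1 log2 unit lower were then 13, against 5.74% of all probe sets and 6.61% of those as bright. In the sterol arm 10 of 16 genes passed as deposited and in the fatty acid arm 0 of 7. The median gap between the clones was -1.13 log2 units in the sterol arm and -0.32 in the fatty acid arm, and -1.28 and -0.39 after quantile normalization. Over all probe sets it was 0.13 and -0.01.

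**Figure D3:**
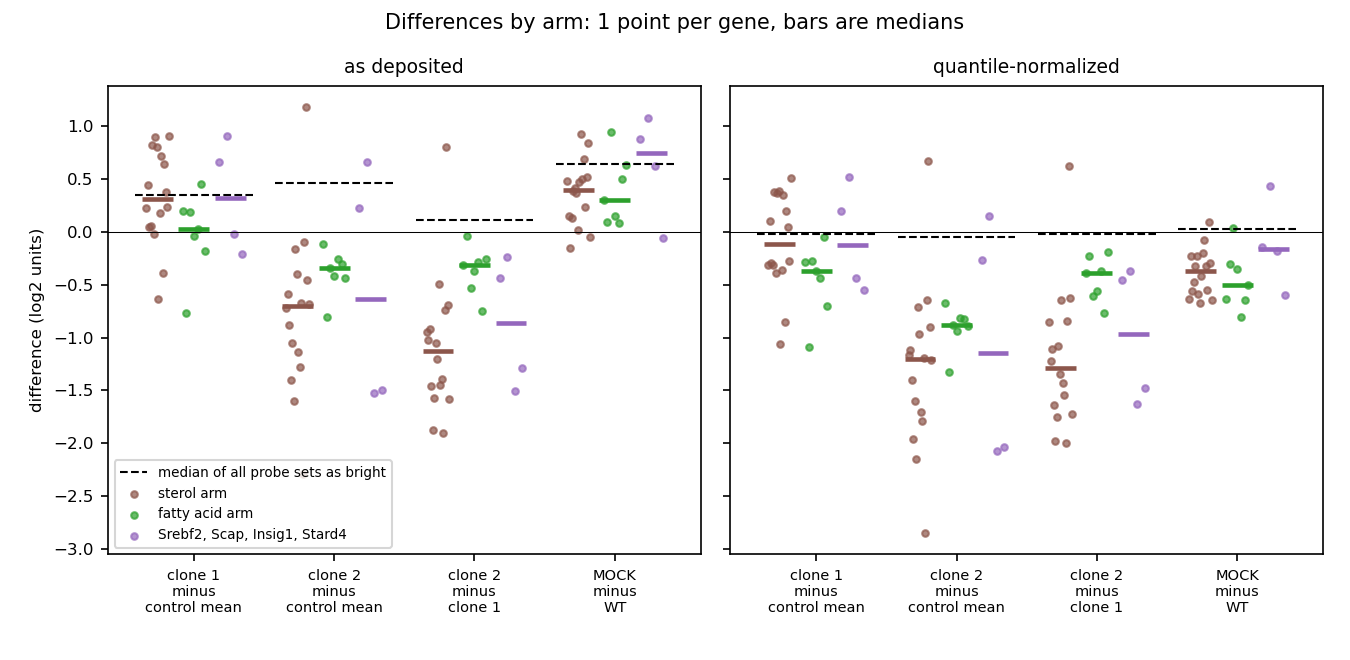
Differences in log2 units by arm for each clone against the control mean, clone 2 against clone 1, and MOCK against WT, as deposited (left) and quantile-normalized (right). Each point is 1 gene, the short bar is the arm's median and the dashed line the median of the 6443 probe sets as bright. The sterol median for clone 2 minus clone 1 is -1.13 as deposited and -1.28 after quantile normalization, and that of the fatty acid arm is -0.32 and -0.39.

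Agreement of both clones against both controls depended on the scaling. As deposited, both clones lay below both controls for 4 of 27 genes, Lss, Nsdhl, Stard4 and Acss2, where 11.7% of all probe sets and 2.37% of those as bright did, and above both for 2, Ebp and Scap, where 27.8% did. After quantile normalization 15 lay below (background 21.3%) and 0 above (background 19.2%). Leaving an array out can only keep or raise such a count, so it gave no test of it. With clone 1 left out, clone 2 lay below both controls for 20 genes (22.3% of all probe sets, 10.4% of those as bright). With clone 2 left out, clone 1 lay above both for 12 genes, near the background (40.9% and 49.4%). Clone 1 above both controls with clone 2 below both was found for Mvk, Idi1, Sqle, Msmo1, Dhcr7 and Elovl6, 6 of 27 genes, where the background is 5.78%. After quantile normalization it was again 6 genes, with Fdft1 and Srebf2 in place of Mvk and Elovl6 (background 9.38%).

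The controls also differed between themselves, in a way the scaling reverses. MOCK minus WT had a median of 0.39 log2 units in the sterol arm and 0.30 in the fatty acid arm as deposited, under the 0.64 of the probe sets as bright, and -0.37 and -0.51 after quantile normalization, where those probe sets stood at 0.02. No gene was 1 log2 unit or more lower in MOCK than in WT (background 1.27%, and 2.67% after quantile normalization), and Scap alone was that much higher as deposited (background 8.79%). For clone 2 the sterol median was -0.90 against MOCK alone, larger than either difference between the controls, and -1.06 after quantile normalization. For clone 1 it was 0.12 against MOCK and 0.63 against WT, and -0.12 against their mean after quantile normalization. A median for clone 1 apart from the controls thus has no settled sign.

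The same pattern stood in the order of the arrays. Clone 2 was the lowest of the 4 arrays for 20 of 27 genes as deposited, where it was lowest for 16.3% of all probe sets and 9.44% of those as bright, and WT was lowest for the other 7. In the sterol arm it was lowest for 13 of 16 genes, with Fdft1, Hsd17b7 and Ebp lowest in WT. After quantile normalization clone 2 was lowest for 25 of 27, all but Ebp and Scap, where the background is 29.9% of all probe sets and 34.3% of those as bright. MOCK and clone 1 were lowest for 0 genes under either scaling.

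**Figure D4:**
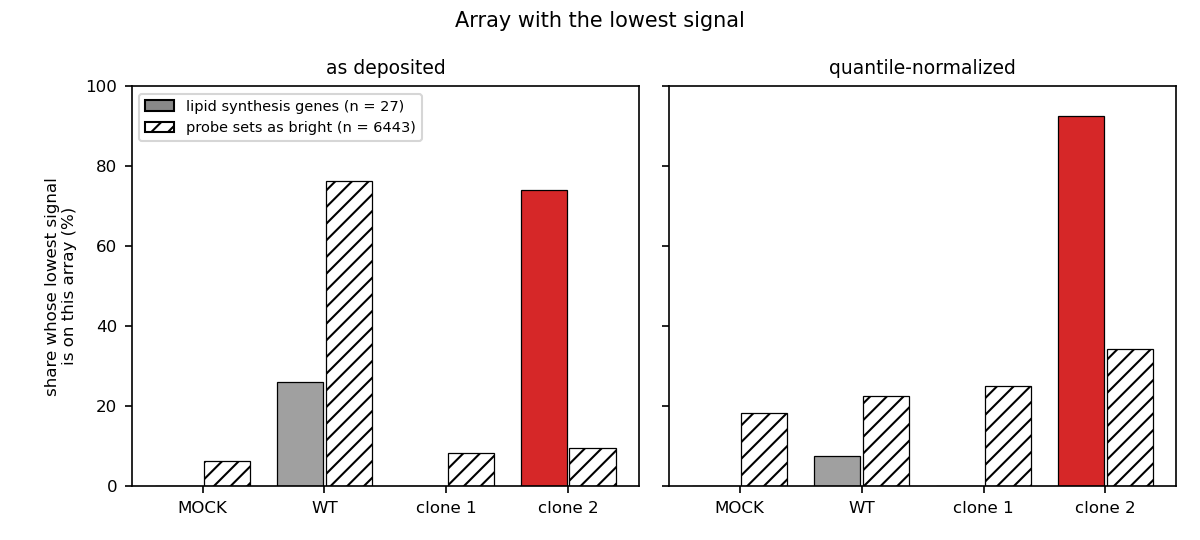
Share in percent of the 27 lipid synthesis genes (filled) and of the 6443 probe sets as bright (hatched) whose lowest signal is on each array, as deposited and quantile-normalized. As deposited, clone 2 is lowest for 20 of 27 genes and for 9.44% of those probe sets, for which WT is most often lowest.

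Relative to the control mean, neighbouring parts of sterol metabolism had clone 2 medians nearer to 0 than the sterol arm under both scalings. Of 9 genes of sterol uptake and transport limma called 0 as deposited and 0 had an unadjusted p under 0.05 (background 8.75%, for the other lists too). Their medians were 0.41 in clone 1 and -0.01 in clone 2 as deposited, and 0.15 and -0.19 after quantile normalization. Scarb1, the HDL receptor, was high in clone 1 and low in clone 2, as Idi1 was. It read 12.48 and 12.80 in WT and MOCK, 13.74 in clone 1 and 11.99 in clone 2. Stard3, a late endosomal sterol transporter, was high in clone 2 and between the controls in clone 1, with 9.43 in WT, 10.18 in MOCK, 9.89 in clone 1 and 11.05 in clone 2. The 7 other genes that use or serve the pathway had medians of 0.53 in clone 1 and 0.05 in clone 2 as deposited and 0.15 and -0.51 after quantile normalization, with 0 called by limma and 0 under an unadjusted p of 0.05. Nus1, a subunit of the enzyme that makes dolichol precursors, read 11.98 and 12.88 in WT and MOCK, 13.99 in clone 1 and 12.72 in clone 2, so clone 1 alone was high as deposited. Clone 2 minus clone 1 had a median of -0.70 log2 units over these 7 genes, and -0.81 after quantile normalization, with 5 and 6 lower. Over the 9 genes of uptake and transport it was -0.24 and -0.35, with 7 and 8 lower. Lower signal in clone 2 than in clone 1 was thus not confined to the 27 genes.

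Genes that cut or degrade SREBP and its partners had no shared direction in clone 2 under both scalings. Of 9 measured limma called 0 as deposited and 4 had an unadjusted p under 0.05 (background 8.75%). Their medians were 0.44 in clone 1 and 0.27 in clone 2 as deposited, and 0.11 and -0.26 after quantile normalization. Mbtps1, the first protease that cuts SREBP in the Golgi, read 9.81 in WT, 10.14 in MOCK, 10.84 in clone 1 and 11.13 in clone 2 (1.01 log2 units, limma adjusted p = 0.482). Syvn1, a ubiquitin ligase of the endoplasmic reticulum, read 10.13 and 10.20 in WT and MOCK, 10.86 in clone 1 and 11.32 in clone 2. Erlin1, which restrains SREBP activation, read 9.36 in WT, 9.94 in MOCK, 10.65 in clone 1 and 10.50 in clone 2. Each of these 3 read higher in either clone than in either control under both scalings, as 27.8% of all probe sets and 35% of those as bright did as deposited and 19.2% of all after quantile normalization. After quantile normalization their clone 2 values lay 0.64, 0.63 and 0.35 log2 units above the control mean, in the order given, while 5 of the 9 genes were below it. Of 8 genes of oxysterols, LXR and efflux the medians were 0.03 in clone 1 and -0.30 in clone 2 as deposited and 0.03 and -0.43 after quantile normalization; limma called 0, 1 had an unadjusted p under 0.05 and 6 were below the 75th percentile of the negative controls on every array. Mylip, the LXR target that degrades the LDL receptor, read 10.77 and 10.51 in WT and MOCK, 12.05 in clone 1 and 11.28 in clone 2.

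Relative to the control mean, other lipid lists had clone 2 medians nearer to 0 than the lipid arms after quantile normalization. For 18 further genes of fatty acid and glyceride synthesis the medians were 0.23 in clone 1 and -0.16 in clone 2 as deposited and 0.04 and -0.45 after quantile normalization. For 6 genes of NADPH supply they were 0.35 and -0.02, and 0.03 and -0.54 after quantile normalization, with 0 called by limma in each and 1 and 0 under an unadjusted p of 0.05. Clone 2 minus clone 1 had a median of -0.43 over the 18 genes, and -0.52 after quantile normalization, with 14 lower under each. These gaps were larger than the -0.32 and -0.39 of the fatty acid arm. For the 6 NADPH genes they were -0.11 and -0.31. Dgat2, a triglyceride synthase, read 7.56 in WT, 7.51 in MOCK, 8.95 in clone 1 and 8.25 in clone 2. Gpam, which starts glycerolipid synthesis, read 7.72 and 8.29 in WT and MOCK, 8.54 in clone 1 and 9.29 in clone 2. Both of these were higher in the clones than in the controls, as deposited. For 14 genes of fatty acid oxidation the medians were 0.36 and 0.32 as deposited and 0.15 and 0.08 after quantile normalization, with 0 called by limma and 1 under an unadjusted p of 0.05. Cpt1a, the gate of mitochondrial fatty acid entry, read 6.68 in WT, 7.59 in MOCK, 7.77 in clone 1 and 8.65 in clone 2, opposite in clone 2 to the synthesis genes.

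**Figure D5:**
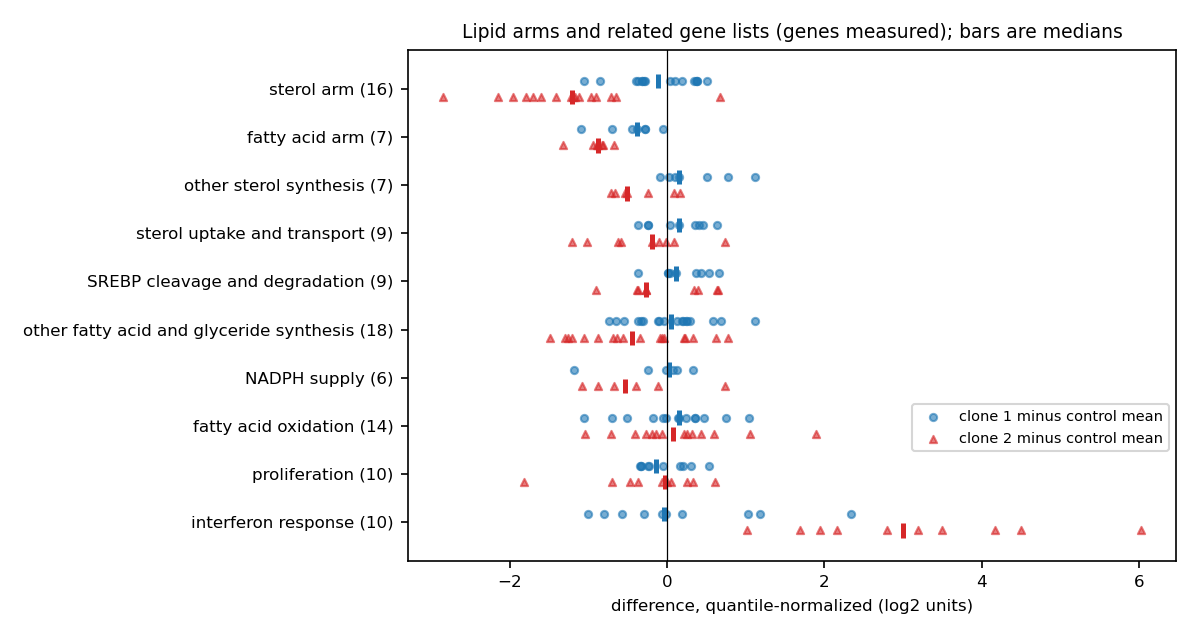
Quantile-normalized difference in log2 units from the control mean for clone 1 (circles) and clone 2 (triangles), 1 point per gene with the median as a bar, for the sterol and fatty acid arms and related lists (number of genes measured in brackets). The clone 2 medians are -1.20 for the sterol arm, -0.88 for the fatty acid arm and 2.99 for the interferon response.

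Genes of the interferon response also differed between clone 2 and the rest. The part of these genes, or of the proliferation genes below, in the lipid values was not tested. For 10 interferon response genes the median was 3.53 log2 units in clone 2 and 0.24 in clone 1 as deposited, and 2.99 and -0.04 after quantile normalization, with 0 called by limma and 4 under an unadjusted p of 0.05 as deposited (background 8.75%). Oasl1 read 4.12 and 4.64 in WT and MOCK, 5.57 in clone 1 and 10.71 in clone 2. For 10 proliferation genes the medians were 0.29 in clone 1 and 0.43 in clone 2 as deposited and -0.14 and -0.03 after quantile normalization, where 5 of 10 were lower in clone 2, with 0 called by limma and 0 under an unadjusted p of 0.05. Ccna2, a cyclin of S phase and mitosis, read 13.36 in WT, 14.08 in MOCK, 13.83 in clone 1 and 12.45 in clone 2. As deposited, 8 of the 10 proliferation genes were instead higher in clone 2 than the control mean, as 66.1% of all probe sets were. Among adipocyte markers, Adipoq, Plin1 and Cidec were below the 75th percentile of the negative controls on every array and Fabp4 read 5.36 and 5.69 in WT and MOCK, 6.52 in clone 1 and 6.97 in clone 2.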

How the data were processed

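RNA of 4 MC38 samples was read on 1 Clariom S mouse array each. Values were deposited by the authors as normalized log2 signals made with the Transcriptome Analysis Console, per the submitters' processing notes. The sources used here do not give its version, the method of normalization or the array's genome build. The log2 scale was read from the range of the values. Groups came from the sample titles. The test took 22206 of 28846 features, without a filter, after 6640 control features had been removed. Symbols came from the platform annotation, updated through RefSeq by Entrez identifier (0 changed).

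Knockout minus control was fitted with limma 3.58.1 (R 4.3.3, lmFit and eBayes, two-sided, no covariate) and adjusted by Benjamini-Hochberg over all probe sets. The fit was tested on simulated data. Single clones were compared by differences, with no test, since each is 1 array. Groups of 2 allow no exact permutation p under 0.333. Alternatives were quantile normalization, centring on array medians, filters on low signal, eBayes with trend and robust, averaging of probe sets, dim genes left out and each array left out. The genes and lists were chosen with earlier results of these data known. All measured genes of the set are named, and from each related list those with the largest differences over both clones or in clone 2, besides sterol feedback genes and markers. Vim, Cdh1, Plin1 and Pdgfrb were named outside that rule, as defining markers. The set of probe sets at least as bright as the dimmest gene (mean 8.67) and the 5 promoters printed were chosen after values were seen. Promoter windows came from RefSeq (GRCm38.p6), with the 50 bases after the start left out.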

Additional observations from a re-analysis of the deposited data

How the results depend on the processing

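With 2 arrays per group and 1 per clone, the number of arrays limits everything here. Low signal limits little, since all 27 genes were above background. The arrays differed in the range of high signals, however, and the results moved with the scaling. No paired analysis was possible because the controls carry no replicate numbers in their titles. For all probe sets the count called was 9, and 1 after quantile normalization, 196 and 125 with a filter at the median and at the 25th percentile of mean signal, 340 with trend and robust, and 0 to 529 with 1 array left out (0 without WT, 1 without MOCK, 149 without clone 2, 529 without clone 1). Among the 27 genes the count called was 0, and 0 to 1 with 1 array left out. The sign of the difference, knockout minus control, changed for 8 of 27 genes under quantile normalization, 4 under centring and 3 to 9 with 1 array left out. None of these differences was called. For clone 1 the sterol median of 0.31 became -0.12 after quantile normalization and 0.12 to 0.63 with a control left out. For clone 2 the sterol median of -0.70 became -1.20 after quantile normalization, -0.93 after centring and -0.90 to -0.61 with a control left out. Quantile normalization moved the sterol median of MOCK minus WT from 0.39 to -0.37, the fatty acid medians from -0.12 to -0.62 (knockout minus control), 0.02 to -0.38 (clone 1), -0.35 to -0.88 (clone 2) and 0.30 to -0.51 (MOCK minus WT). Counts of genes with both clones below both controls went from 4 to 15 after quantile normalization and 4 to 20 with 1 array left out. Those above went from 2 to 0 after quantile normalization, 1 after centring and 2 to 12 with 1 array left out. Genes at least 1 log2 unit lower went in clone 2 from 8 to 14 after quantile normalization and 5 to 8 with a control left out (12 to 21 when both changes are made), and in clone 1 from 0 to 2 after quantile normalization. Averaging probe sets and leaving out dim genes changed nothing for the 27, each having 1 probe set above background. The causes of these shifts were not tested.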
